A study of Homo sapiens with 10 samples.

Results

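ZR75-1 is an established estrogen receptor-positive breast cancer cell line of the luminal subtype. The 5 ZR75-1 transcriptomes described here come from a series of 10, whose other 5 are from the basal-like line MDA-MB-468, and they were chosen by their labels alone. Cells were kept for 6 h in the solvent DMSO (2 samples) or in 1 µM PKC412 (3 samples), and RNA was sequenced. The labels give no genotype change and no second agent, and do not say whether the replicates were separate cultures, so p-values measure only the spread between these samples. The comparison asks how a luminal line, set beside the basal-like line in the study, changed its gene expression under the drug.

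PKC412 (midostaurin) is a derivative of staurosporine that binds the ATP pocket of many protein kinases, among them protein kinase C isoforms and FLT3. Kinase cascades end on transcription factors, so a few hours of kinase inhibition can be read in the transcripts those factors control. The cAMP pathway works through protein kinase A, which phosphorylates the transcription factor CREB and inhibits the salt-inducible kinases, which otherwise keep the CRTC coactivators of CREB out of the nucleus. CREB binds the cAMP response element (CRE), and its targets are known to include feedback genes of the pathway itself, such as phosphodiesterases, SIK1 and the repressor isoforms of CREM. The ERK pathway drives its own set of feedback genes, among them the DUSP phosphatases and FOSL1.

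The CRE letters are shown first because 5 of the 15 largest rises were in genes of the cAMP and CREB list. Of the 10595 tested genes, 17 are in that list, which was written with earlier results of these data known. The count is therefore only a description. LINC00473 and SIK1, counted among the 5, also passed the level filter (below) through PKC412 alone. The full element TGACGTCA equals its own reverse complement, and its core is TGACG on one strand or CGTCA on the other. Both were searched in the 250 bases before each RefSeq transcript start (GRCh38.p14), and each full match also holds core matches. The full letters were in 1.65% and a core in 21.2% of the 34961 windows of all genes. In the gene encoding CGA, 2 full matches lay side by side, the first beginning 142 bases before the start at chr6:87095222-87095249 on the minus strand. CREM held 1 before an internal start at chr10:35195842-35195869 on the plus strand, and AREG held 1 at chr4:74445061-74445088 on the plus strand. The short stretches below carry the full element in capitals.
CGA: tTGACGTCAtggtaaaaatTGACGTCAt
CREM: agctgcacatTGACGTCAgctccgagtc
AREG: ggccgggcctTGACGTCAtgggctgcgg
The whole 250 bases are given for 3 raised genes whose window lies over no annotated GENCODE exon, with full and core matches in capitals. DUSP1 (chr5:172771196-172771445, minus strand) had 1 full match, which began 125 bases before the start. PDE4A (chr19:10416523-10416772, plus strand) had 5 core matches in the first of its windows, and RASD1 (chr17:17496396-17496645, minus strand) had 2.
DUSP1: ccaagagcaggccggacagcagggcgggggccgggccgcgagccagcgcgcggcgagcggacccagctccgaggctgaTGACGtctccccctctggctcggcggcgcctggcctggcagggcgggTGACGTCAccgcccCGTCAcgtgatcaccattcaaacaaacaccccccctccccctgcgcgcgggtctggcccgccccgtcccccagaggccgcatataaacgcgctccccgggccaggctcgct
PDE4A: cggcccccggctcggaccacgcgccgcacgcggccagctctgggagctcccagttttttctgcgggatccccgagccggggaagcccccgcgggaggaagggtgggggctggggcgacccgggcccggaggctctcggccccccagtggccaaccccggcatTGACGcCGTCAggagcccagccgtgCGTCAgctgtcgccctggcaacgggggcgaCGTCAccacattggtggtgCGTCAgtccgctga
RASD1: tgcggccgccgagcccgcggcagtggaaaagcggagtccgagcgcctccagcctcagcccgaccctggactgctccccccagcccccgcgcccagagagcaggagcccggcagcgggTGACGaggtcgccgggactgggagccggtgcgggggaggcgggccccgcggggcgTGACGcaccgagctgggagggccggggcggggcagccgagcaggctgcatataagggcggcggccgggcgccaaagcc

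Of the 109 genes that rose (below), 93 matched a RefSeq promoter, and 48 of these (51.6%) held at least a core match and 5 (5.38%) a full one. Among all tested genes with a match (8182 of 10595), the shares were 37.1% and 3.74%. In the cAMP and CREB list, 10 of 15 matched genes held a core match and 4 a full one (CGA, DUSP1, CREM and AREG). The list was drawn up from targets of CREB, which binds this element, so its shares are no separate evidence. NR4A1, ADORA1, TARS2 and ZBED1 held neither in their windows. AREG, the growth factor amphiregulin, held a full match, and its FPKM of 15.4 and 31.0 in DMSO overlapped 18.4, 18.1 and 21.0 in PKC412. Of the 34 genes that fell, 20 matched, and 4 of these (20%) held a core match and 1 (5%) a full one, so the full-match share of the falls was close to that of the rises. A match describes these letters only, and says nothing about binding in these cells.

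FPKM is a count of fragments relative to the length of the transcript and to all fragments mapped in the sample. The files give no counts, so depth is unknown. Sums of FPKM were 835069 and 752338 in DMSO and 710360, 746154 and 610275 in PKC412. Luminal genes were abundant, with keratin KRT8 between 2473 and 5272 FPKM and the estrogen-induced TFF1 between 4240 and 7691. None of 13 tested luminal markers was called at a limma adjusted p under 0.05 with the deposited FPKM, and after the GC and length adjustment TFF1 rose and GATA3, KRT19 and TFF3 fell. ESR1, the estrogen receptor, lay between 2.63 and 8.28, and PGR, the progesterone receptor, stayed at or under 0.549. Of 11 basal markers, 1 passed the level filter, the cadherin CDH3 (17.9 to 25.2), and KRT5 and KRT14 were at most 0.287 and 0.0551. Summed leukocyte and endothelial markers stayed at or under 1.02 and 0.149. Among 4 fibroblast markers only COL1A1 passed the filter. It had 2.25 and 2.75 in DMSO and 9.11, 6.65 and 11.1 in PKC412 and rose by 1.49 on the log2 scale (limma adjusted p = 0.014, and 0.109 without DMSO replicate 1 and 0.0573 without PKC412 replicate 1). COL1A2 and COL3A1 were listed at or near 0.

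GC content separated the samples within each treatment. The slope of log2 FPKM on the GC content of the transcript, per 10 percentage points, was 0.31 and -0.19 in DMSO and -0.11, 0.34 and -0.36 in PKC412. DMSO replicate 1 and PKC412 replicate 2 therefore favoured GC-rich transcripts, and PKC412 replicate 3 favoured AT-rich ones. Pearson correlations of log2 FPKM between samples of different treatment (0.898 to 0.968 over 6 pairs) covered the range within a treatment (0.920 to 0.952 over 4 pairs). For this reason a second fit was made with GC content and transcript length adjusted for. The 15 largest rises and the 15 largest falls all kept their direction and call in this fit. Among these genes, LINC00473, FAM176C, FAM101A, FAM46B and C17orf109 had no GC or length value, so medians were used in place of their own. The second fit is given below for counts of calls and where it changed a named call. The median of all tested genes moved by 0.12 with the deposited FPKM and by -0.01 after the adjustment, so list medians are to be read against these values.

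**Figure D1:**
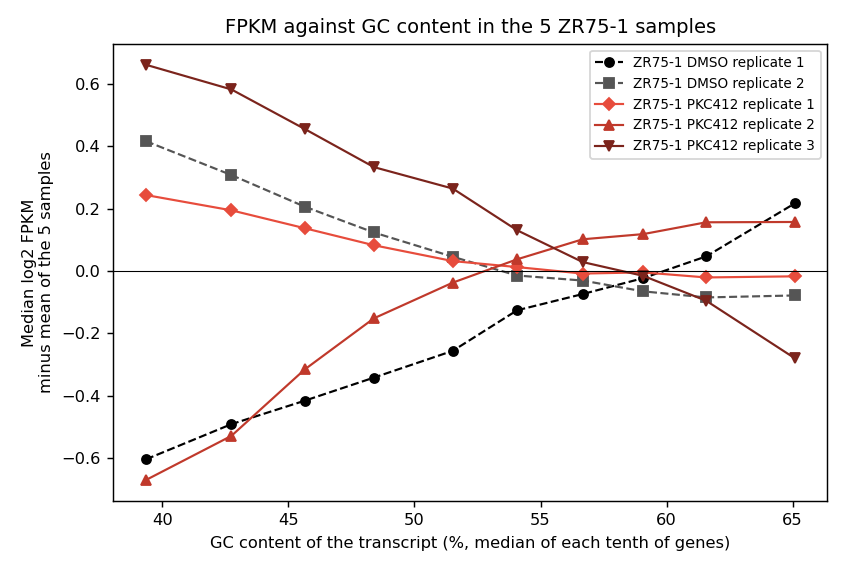
Median log2 FPKM of each sample minus the mean of the 5 ZR75-1 samples (vertical axis) for genes in 10 bins of transcript GC content in percent (horizontal axis). Lines are single samples, dashed for DMSO and solid for PKC412. Curves of both treatments run in both directions, with slopes per 10 points from -0.36 to 0.34.

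A gene was tested where its mean FPKM was above 1 in at least 1 ZR75-1 treatment, which 10595 of 23426 genes met. Of these, 754 were above 1 only in PKC412 and 169 only in DMSO. At a limma adjusted p under 0.05 on log2(FPKM + 1), 109 genes rose (1.03%) and 34 fell (0.321%), together 143 (1.35%). All 143 had no overlap between the treated and the DMSO samples, which selection by the same difference makes likely and which is no separate evidence. Of all tested genes, 15.2% lay above and 7.78% below without overlap. After the GC and length adjustment, 256 rose (2.42%) and 181 fell (1.71%), in all 4.12% of the tested genes, and 134 of the 143 were called again in the same direction. The rises thus made up 76.2% of the calls with the deposited FPKM and 58.6% after the adjustment. Of the 109 rises, 26 passed the level filter through PKC412 alone and so could hardly count as anything but higher. Of the 34 falls, 3 passed it through DMSO alone. Counts of calls in gene lists below are to be read against the shares of all tested genes given here. The spread was estimated over all 4 groups of the series. It is too small for genes with almost no transcript in MDA-MB-468, and 32 of the 143 were below 1 FPKM there in both treatments. A fit of ZR75-1 alone, with 3 residual degrees of freedom for 6, called 9 rises and 3 falls, of which 8 were among the 143. Its limma adjusted p was 0.205 for LINC00473, 0.206 for SMOC2, 0.128 for FAM101A and 0.425 for ADRA2A, all near 0 in MDA-MB-468. Genes expressed there lost the call too. Among them were ATP1B3 (limma adjusted p = 0.074), NFKB2 (0.124), VGLL1 and TNFRSF12A (0.190 each) and FOXI1 (0.222). With DMSO replicate 1 left out, 34 rose and 21 fell; without PKC412 replicate 1 the counts were 51 and 10, and without PKC412 replicate 3 they were 81 and 17. Leaving out any 1 sample kept the direction of all 143 genes, as it must where the treatments do not overlap. With each of the 5 samples left out in turn, 31 of the rises and 6 of the falls kept their call. These refits pooled the spread in the same way.

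**Figure D2:**
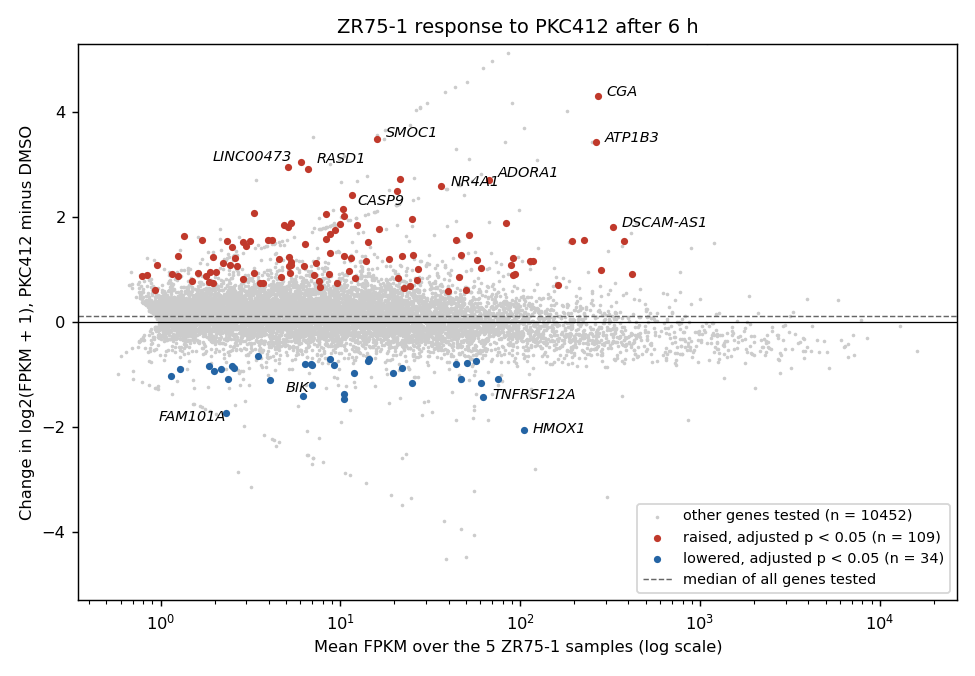
Change in log2(FPKM + 1), PKC412 minus DMSO (vertical axis), against the mean FPKM over the 5 ZR75-1 samples (horizontal axis, log scale) for 10595 genes. Red points are the 109 genes that rose and blue points the 34 that fell at a limma adjusted p under 0.05. The dashed line is the median of all tested genes, 0.12. Grey points did not pass the test.

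On the log2(FPKM + 1) scale the largest rise was in CGA (chromosome 6, 87085498 to 87095406), which encodes the alpha subunit shared by the glycoprotein hormones. CGA had 15.9 and 27.6 FPKM in DMSO and 446, 369 and 496 in PKC412. All treated samples stood more than an order of magnitude above both DMSO samples, a log2 change of 4.30 ± 0.22 (SE, limma adjusted p = 9.3e-05). The other 9 genes of the glycoprotein hormone list did not pass the level filter. The beta subunit gene LHB had a mean of 0.344 in DMSO and 0.545 in PKC412, and FSHB and TSHB were listed at 0.

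Of the 25 genes of the cAMP and CREB list 17 were tested, and of these 7 rose (1.03% of all genes did) and none fell. The median log2 change of the 17 was 1.53, against 0.12 over all genes, and 14 of them (82.4%) lay above DMSO without overlap, against 15.2% of all genes. After the GC and length adjustment 13 rose (2.42% of all genes did), with a median of 1.40. The list was chosen with earlier results of these data known, so these counts describe its members and test nothing. The level filter also bears on them. LINC00473, SIK1, PDE4A, FOS, NR4A2 and PDE4D passed it through PKC412 alone and so could hardly count as anything but higher. Among the 11 members above 1 FPKM in DMSO, 4 rose with the deposited FPKM (CGA, NR4A1, DUSP1 and CREM) and 7 after the adjustment. Fitting ZR75-1 alone left 2 of the 7 (CGA and NR4A1), and leaving out 1 sample at a time left between 5 and 8. The transcription factor NR4A1, an orphan nuclear receptor induced by cAMP, had 7.29 and 9.55 in DMSO and 51.6, 58.2 and 56.0 in PKC412, a tight group well apart from DMSO. Its log2 change was 2.59 ± 0.14 (limma adjusted p = 9.3e-05). LINC00473, a long noncoding RNA known as a CREB target, was near 0 in DMSO (0.0974 and 0.210) and reached 8.82, 4.53 and 11.9. Feedback regulators of the pathway were in the same set. The kinase SIK1, which restrains the CRTC coactivators, had 0.399 and 0.547 in DMSO and 4.58, 4.72 and 6.39 in PKC412 (log2 change 2.07, limma adjusted p = 0.0029). The phosphodiesterase PDE4A, which degrades cAMP, had 0.782 and 0.862 and then 3.72, 4.14 and 4.94 (1.52, limma adjusted p = 0.0024).

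DUSP1 and CREM rose with more spread in DMSO. DUSP1, a phosphatase of MAP kinases, had 1.45 and 3.78 in DMSO and 14.2, 23.4 and 15.6 in PKC412 (log2 change 2.42 ± 0.34, limma adjusted p = 0.016). CREM, whose internal promoter gives rise to the repressor ICER, had 1.80 and 5.04 and then 15.5, 10.3 and 16.9 (1.86 ± 0.34, limma adjusted p = 0.043). In both genes DMSO replicate 1 was the lower one, and without it the limma adjusted p was 0.101 for DUSP1 and 0.225 for CREM. CREM also lost its call without PKC412 replicate 1 (0.146) or PKC412 replicate 3 (0.125). The 6 members that passed only after the GC and length adjustment were CITED2, FOS, NR4A2, PDE4D, PER1 and RGS2. CITED2 had 5.57 and 14.3 in DMSO and 29.2, 35.9 and 39.8 in PKC412, with adjusted p = 0.051 before and 0.0088 after the adjustment in limma. NR4A2, the nearest relative of NR4A1, had 0.0498 and 0.180 and then 1.90, 1.49 and 4.47. ATF3, CRTC2, CREB3L1 and AREG were not called in either form.

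**Figure D3:**
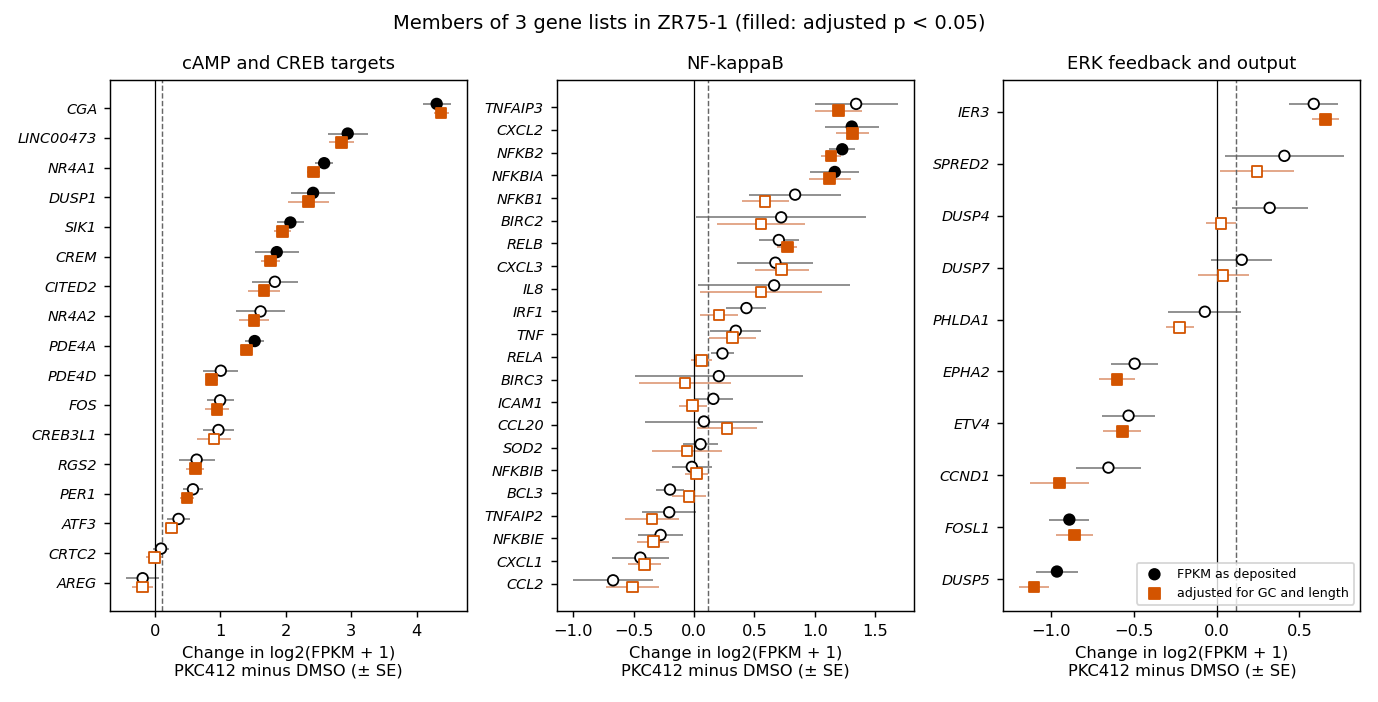
Change in log2(FPKM + 1), PKC412 minus DMSO, with its standard error (horizontal axis), for the tested genes of 3 lists (vertical axis). Circles are the deposited FPKM and squares the FPKM adjusted for GC content and length, and filled symbols passed a limma adjusted p of 0.05. In the cAMP and CREB list 7 circles and 13 squares are filled, all to the right of 0. In the NF-kappaB list 3 and 5 are filled, also to the right, and in the ERK list 2 filled circles and 5 filled squares lie to the left and 1 filled square to the right.

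Several other large rises were in genes of signalling at the cell surface or near it. ADORA1, the adenosine A1 receptor, which couples to inhibitory G proteins, had 15.2 and 13.9 FPKM in DMSO and 91.2, 126 and 89.6 in PKC412. The small Ras-like G protein RASD1 had 0.512 and 0.553 in DMSO and 10.4, 11.8 and 9.77 in PKC412, and the 3 treated samples were close together. RASD1 passed the level filter through PKC412 alone. The adrenergic receptor ADRA2A, also coupled to inhibitory G proteins, rose from 2.55 and 3.22 to 17.9, 8.84 and 20.0. Its call was lost without DMSO replicate 1 (limma adjusted p = 0.165), DMSO replicate 2 (0.0517) or PKC412 replicate 1 (0.0733). The log2 changes were 2.71 for ADORA1, 2.92 for RASD1 and 2.02 for ADRA2A, with limma adjusted p of 0.00016, 7.3e-05 and 0.020. ATP1B3, a beta subunit of the sodium-potassium ATPase, had 29 and 45.1 in DMSO and 468, 280 and 497 in PKC412, a change of 3.44 ± 0.27 (limma adjusted p = 0.00098). It was the only one of 7 tested sodium-potassium ATPase and FXYD genes that was called.

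SMOC1, a secreted matrix protein known to inhibit BMP signalling, had 1.34 and 1.42 in DMSO and 22.5, 28.4 and 26.2 in PKC412. Its relative SMOC2 had 2.55 and 4.06 and then 12.9, 11.9 and 15.5, and both rose (3.48 and 1.76, limma adjusted p = 3.5e-05 and 0.0037). These were the 2 rises among 14 tested BMP and TGF-beta genes (1.03% of all genes rose). The BMP target ID3 was high but scattered in PKC412, with 67.9 and 96.8 in DMSO against 194, 409 and 162, and passed only after the adjustment (limma adjusted p = 0.11 before and 0.023 after). INHBB, a subunit of activin, had 11.5 and 19.1 and then 5.06, 6.02 and 6.76, and likewise passed only after it (0.051 and 0.0045 in limma), as did TGFB3, which fell.

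CASP9, the initiator caspase of the mitochondrial death pathway, was another of the largest rises. It had 4.20 and 5.34 FPKM in DMSO and 29.7, 35.5 and 28.9 in PKC412, with no overlap and a log2 change of 2.49 ± 0.15 (limma adjusted p = 0.00024). Without strand information its reads could include those of CELA2B on the other strand. BIK, a pro-apoptotic BH3-only protein, fell from 12.1 and 9.80 to 3.17, 5.66 and 3.89 and was the only one of 14 tested BCL2 family genes called (-1.21, limma adjusted p = 0.034). After the adjustment 4 fell (BIK, BBC3, BMF and the survival gene BCL2L1) and 1 rose, the BH3-only gene BCL2L11. Of all genes, 1.71% fell and 2.42% rose in that fit. BCL2L1 had 52.5 and 63.5 in DMSO and 30.8, 40.8 and 32.7 in PKC412 (limma adjusted p = 0.077 before and 0.0058 after the adjustment). The call of BIK was lost without any 1 sample other than PKC412 replicate 2, with limma adjusted p from 0.0561 to 0.28. TNFRSF12A, the receptor of the cytokine TWEAK, fell from 85.7 and 116 to 36.1, 38.7 and 34.9 (-1.42 ± 0.13, limma adjusted p = 0.0024). It was the only call among 14 tested TNF receptors and ligands, and its own ligand TNFSF12 had 2.90 and 3.11 and then 3.24, 3.63 and 2.23. After the adjustment TNFSF10 fell as well and its receptor TNFRSF10B rose. TNFRSF12A overlaps CLDN6 on the other strand.

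Many of the 15 largest rises were in genes that overlap another annotated gene, and reads of overlapping genes may be mixed. The share of such genes among all tested genes was not computed, so this is no trait of the rises. LINC00473 and FAM176C had no annotation match and were not checked. SMOC1, ATP1B3, ADORA1, NR4A1, CASP9, DUSP1 and SH3BP5 overlap a gene on the other strand, and ZBED1 and TARS2 one on the same strand, which for TARS2 is a microRNA gene. Of the falls, besides PDF and TNFRSF12A, LIF overlaps genes on the other strand and VGLL1 a microRNA gene on the same strand. ZBED1 (3.80 and 4.43 in DMSO, 29.5, 32.9 and 36.2 in PKC412) lies within DHRSX on the same strand of chromosome X, and DHRSX also rose, from 9.27 and 10.5 to 22.4, 29 and 21.5. TARS2, the mitochondrial threonyl-tRNA synthetase, had 0.160 and 0.437 and then 8.37, 8.68 and 12.5, and it passed the level filter through PKC412 alone. Its annotated end on chromosome 1 (150507609) lies next to the start of ECM1 (150508062). TARS2 was the only one of 37 aminoacyl-tRNA synthetase genes called, and its call was lost without any 1 sample other than PKC412 replicate 2 (limma adjusted p from 0.0561 to 0.184). SH3BP5, an exchange factor for RAB11, rose from 1.45 and 4.15 to 13.2, 11.9 and 20.8 and lost its call without DMSO replicate 1 (limma adjusted p = 0.191), PKC412 replicate 1 (0.0941) or PKC412 replicate 3 (0.0751). The remaining member of the 15, FAM176C (now EVA1C), had 2.58 and 1.86 in DMSO and 12.4, 12.3 and 12.5 in PKC412.

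**Figure D4:**
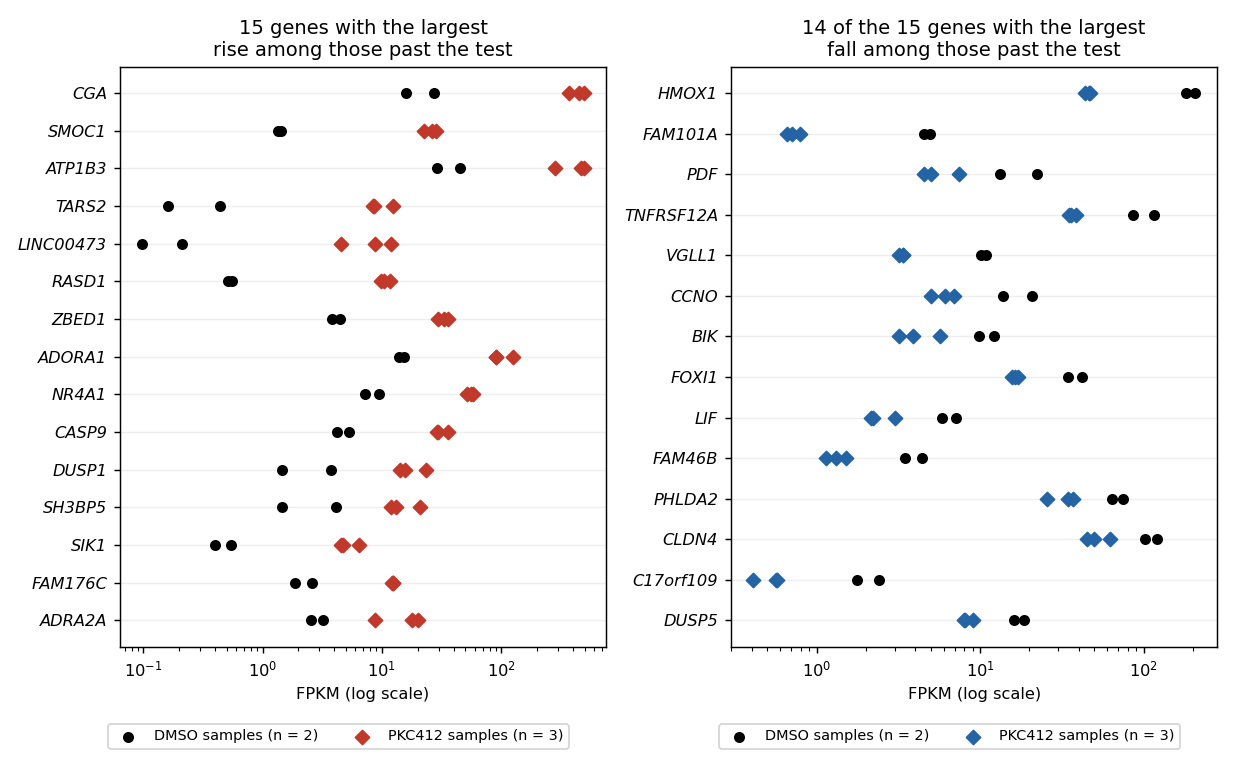
FPKM on a log scale (horizontal axis) of the 15 genes that rose most (left) and 14 of the 15 that fell most (right, both on the vertical axis) among those that passed the test. Black circles are the 2 DMSO samples and coloured diamonds the 3 PKC412 samples. The genes were chosen so that the 2 treatments do not overlap, and in HMOX1 the DMSO samples stand at 182 and 207 FPKM against 43.5 to 47.1.

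On the same scale the largest fall was in HMOX1 (chromosome 22, 35380361 to 35394214), the inducible heme oxygenase, which breaks heme down to biliverdin, iron and carbon monoxide. HMOX1 had 182 and 207 FPKM in DMSO and 47.1, 43.5 and 46.4 in PKC412. The 3 treated samples were nearly level and far under both DMSO samples, and the log2 change was -2.06 ± 0.10 (limma adjusted p = 7.3e-05). Of 27 tested NRF2 and heme genes, HMOX1 was the only fall and AKR1C1 the only rise (17.5 and 15.1 in DMSO, 38.5, 28.9 and 35.1 in PKC412). The call of AKR1C1 was lost after the GC and length adjustment (limma adjusted p = 0.33), and AKR1C1 shares near-identical sequence with AKR1C2, so its value is uncertain. NQO1, the standard NRF2 target, had 326 and 346 in DMSO and 357, 373 and 351 in PKC412, a change of 0.10 (limma adjusted p = 0.61). The list median was 0.02, against 0.12 over all genes. After the adjustment HMOX1, GSR and OSGIN1 fell and PGD rose, and the median was -0.13 against -0.01.

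The ERK list had 10 tested genes, of which 2 fell and none rose (0.321% and 1.03% of all genes did). DUSP5, a nuclear phosphatase of ERK, had 16.1 and 18.5 in DMSO and 8.07, 9.09 and 7.99 in PKC412 (-0.96, limma adjusted p = 0.014). FOSL1, an AP-1 subunit, had 3.56 and 3.19 and then 1.48, 1.22 and 1.39 (-0.89, limma adjusted p = 0.015). After the adjustment CCND1, EPHA2 and ETV4 fell too, and IER3 rose (1.71% of all genes fell and 2.42% rose). Cyclin D1, encoded by CCND1, had 175 and 160 in DMSO and 104, 83.9 and 137 in PKC412, with limma adjusted p = 0.23 before and 0.025 after the adjustment. The list median was -0.28 before it and -0.40 after. Leaving out DMSO replicate 1 ended both calls (limma adjusted p of 0.0539 for DUSP5 and 0.114 for FOSL1), and so did leaving out PKC412 replicate 1 (0.0623 and 0.0524), while leaving out DMSO replicate 2 ended that of DUSP5 (0.0517). DUSP6 and 3 SPRY genes, the best known feedback genes of this pathway, did not pass the level filter. DUSP1, another DUSP phosphatase, was placed in the cAMP and CREB list and not in this one, and it rose.

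AP-1 subunits moved in both directions. FOSL2 rose from 5.65 and 6.42 to 17.8, 24.4 and 27.6 (1.77, limma adjusted p = 0.020, and 0.164 without DMSO replicate 1, 0.0544 without DMSO replicate 2 and 0.06 without PKC412 replicate 3), and FOSL1 fell. JUN had 3.19 and 6.36 in DMSO and 1.14, 1.53 and 1.61 in PKC412 (-1.20, limma adjusted p = 0.072, and 0.0073 after the adjustment). FOS had 0.224 and 0.659 and then 1.30, 2.27 and 2.05, and EGR1 overlapped, with 3.63 and 7.27 against 3.15, 4.16 and 4.68.

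The NF-kappaB list had 3 rises and no fall among 22 tested genes (1.03% of all genes rose and 0.321% fell). NFKB2, the precursor of the p52 subunit, had 49.4 and 50.9 in DMSO and 113, 122 and 122 in PKC412 (1.23 ± 0.11, limma adjusted p = 0.0020). The inhibitor NFKBIA rose from 52.5 and 84.3 to 143, 170 and 140, and the chemokine CXCL2 from 3.08 and 5.42 to 11.6, 9.79 and 13.9. NFKB2 kept its call with each sample left out, though not in the fit of ZR75-1 alone (limma adjusted p = 0.124). Without DMSO replicate 1 the limma adjusted p was 0.175 for NFKBIA and 0.225 for CXCL2, and both also lost the call without PKC412 replicate 1 (0.107 and 0.116) or 3 (0.0829 and 0.0884), and NFKBIA without PKC412 replicate 2 (0.0813). After the adjustment RELB and TNFAIP3 rose as well (2.42% of all genes rose). CCL2 had 21.6 and 51.5 in DMSO and 20.0, 16.7 and 26.2 in PKC412, ICAM1 overlapped between the treatments, and the list median of 0.29 stood against 0.12 over all genes.

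Other falls were in genes of transcription, the cell cycle and the cell surface. VGLL1, a cofactor of the TEAD transcription factors, had 10.1 and 10.8 in DMSO and 3.39, 3.38 and 3.20 in PKC412, with hardly any spread (-1.41 ± 0.09, limma adjusted p = 0.00024). It was the only call among 15 tested YAP and TEAD genes, while CYR61 and WWC1 fell only after the adjustment. FOXI1, a forkhead factor, fell from 42.1 and 34.5 to 16.3, 15.8 and 17.1. The tight-junction gene CLDN4 had 102 and 121 and then 49.5, 61.9 and 44.9. CCNO, an atypical cyclin, had 20.9 and 13.8 and then 6.93, 6.11 and 5, and was the only call among 14 tested cyclin, CDK and inhibitor genes before the adjustment, after which CCND1 fell too. The cytokine LIF had 5.85 and 7.13 and then 2.22, 2.16 and 3.03. FAM101A, a filamin-binding protein, was the steepest of these, with 4.95 and 4.53 in DMSO and 0.660, 0.710 and 0.786 in PKC412 (-1.74 ± 0.11, limma adjusted p = 0.00024). PDF (22.2 and 13.1, then 7.45, 4.98 and 4.50) overlaps COG8 on the same strand, so their reads may be mixed. PHLDA2, FAM46B and C17orf109 were also among the 15 largest falls, with changes of -1.09, -1.09 and -1.02. HMOX1, FAM101A, VGLL1, TNFRSF12A and FOXI1 kept their call with each sample left out. Among these, only HMOX1 kept it in the fit of ZR75-1 alone. CLDN4, CCNO, LIF, PDF, PHLDA2, FAM46B and C17orf109 lost it without DMSO replicate 1 (limma adjusted p from 0.0511 for CLDN4 to 0.348 for PDF), and, FAM46B excepted, without at least 1 other sample too.

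Estrogen response genes showed 2 rises among 19 tested (1.03% of all genes rose), SIAH2 and SLC7A5. SIAH2 had 26.3 and 35.2 in DMSO and 55.0, 53.6 and 59.2 in PKC412, and SLC7A5 had 151 and 200, then 411, 529 and 599. SIAH2 is a ubiquitin ligase and SLC7A5 a transporter of large neutral amino acids, also counted as the 1 rise among 23 ATF4 targets. GREB1, a direct estrogen receptor target, had 21.6 and 31.0 in DMSO and 57.2, 53.9 and 94.1 in PKC412 and just missed the threshold (1.32, limma adjusted p = 0.053). After the adjustment 4 genes rose (SIAH2, SLC7A5, GREB1 and TFF1) and 4 fell (CCND1, KCNK5, MYB and TFF3). Of all genes, 2.42% rose and 1.71% fell in that fit. Among 15 FOXO targets IRS2, an adaptor of the insulin receptor, rose from 1.41 and 1.43 to 8.30, 5.43 and 9.14. The hypoxia list had 2 rises (ANKRD37 and NDRG1) and 1 fall (ADM) among 27 tested (1.03% of all genes rose and 0.321% fell). Single calls were TSC22D3 among 4 TSC22 genes, AEN among 16 p53 targets, UNG among 28 DNA replication genes and HEY2, which fell, among 9 notch genes. The interferon list had 1 rise, ISG20, and 1 fall, IRF9, among 16. After the adjustment BCL2L11 and CITED2 of the FOXO list, LDHA of the hypoxia list, TNFRSF10B of the p53 list and HES4 of the notch list rose as well, and TRIB2 (FOXO), STC2 and TRIB3 (ATF4), BBC3 (p53) and MX1 (interferon) fell. Of the genes called in these lists, TSC22D3 kept its call without DMSO replicate 1 (limma adjusted p = 0.0427), and the others had values from 0.0555 (IRS2) to 0.248 (SIAH2). IRS2, ANKRD37 and SLC7A5 excepted, those others also lost the call without at least 1 other sample.

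Many lists had no call with the deposited FPKM. Among them were the 28 tested genes of G2 and mitosis, 22 of cholesterol synthesis, 12 of fatty acid synthesis, 17 of the unfolded protein response, 15 of heat shock, 10 of the MYC network, 22 of ribosome biogenesis, 11 of MHC class I and 8 Kruppel-like factors. After the adjustment AURKA of the mitosis list rose and the chaperone genes HSPB1 and DNAJB1 fell. The mitotic kinase AURKA, also a candidate PKC412-binding kinase, had 24.2 and 40.0 in DMSO and 71.9, 41.4 and 87.5 in PKC412 (limma adjusted p = 0.26, and 0.011 after the adjustment). Of 11 candidate kinases of the study, 8 passed the level filter and none was called, and after the adjustment AURKA and MARK2 rose. SYK had 1.32 and 1.49 in DMSO and 1.67, 1.63 and 2.27 in PKC412. The known PKC412 targets were low: among FLT3, KIT, the PDGF and VEGF receptors and the protein kinase C genes PRKCA and PRKCB, only the VEGF receptor FLT4 passed the filter, at a mean of 1.32 in DMSO and 1.37 in PKC412. Among the other protein kinase C genes, PRKCZ (22.6 to 30.8) and PRKCD (14.0 to 22.1) were the highest, and none of the 4 tested was called.

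The 82 tested ribosomal protein genes had a median log2 change of -0.34, and 79 were negative, although none was called. PKC412 lay below DMSO without overlap in 36 of them (43.9%), against 7.78% of all genes, and in 26.8% against 15.5% after the adjustment. Their median was -0.33 after the adjustment, against -0.01 over all genes. The 79 respiratory chain genes had a median of -0.23, and of -0.29 after the adjustment, again with no call. Ribosomal protein transcripts were short, with a median length of 1176 bases against 2955 over all genes, and their summed FPKM was 225500 and 194800 in DMSO and 173600, 193000 and 129700 in PKC412. The part of library make-up in this shift was not tested.

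The study set ZR75-1 beside MDA-MB-468, and the difference of the 2 responses was tested in the same limma fit. It passed an adjusted p of 0.05 for 20 genes (0.189%), of which 17 were among the 143, and 15 of these also passed after the GC and length adjustment. CGA differed most, with a log2 change of 4.30 in ZR75-1 and 0.45 in MDA-MB-468, where it went from 36.4 ± 3.2 (SD, n = 2) to 49.9 ± 0.1 FPKM (SD, n = 3), for a difference of 3.86 ± 0.30 (limma adjusted p = 0.0058). ADORA1 stood at nearly the same level in DMSO in both lines and was 14.7 ± 0.3 in DMSO and 13.8 ± 0.5 in PKC412 in MDA-MB-468, a difference of 2.80 ± 0.22 (limma adjusted p = 0.0058). ATP1B3 changed by 0.27 there, and CASP9 by 0.43. HMOX1 was lower in MDA-MB-468 to begin with, at 19.9 ± 0.3 in DMSO and 14.9 ± 0.2 in PKC412, and its difference was -1.67 ± 0.14 (limma adjusted p = 0.0058). FOXI1 moved by 0.31 in MDA-MB-468 against -1.17 in ZR75-1. FAM101A was near 0 in MDA-MB-468, so its difference of -1.71 sets a fall beside a gene with almost no transcript in either treatment. In the cAMP and CREB list, CGA alone had a difference past the threshold with the deposited FPKM. After the GC and length adjustment, when the difference passed for 107 genes (1.01%), it passed for 7 of the 17, which were CGA, LINC00473 (limma adjusted p = 0.0045), PDE4A (0.010), CREM (0.012), PDE4D (0.027), CITED2 (0.029) and NR4A1 (0.030). SMOC1, NR4A1, SIK1, DUSP5 and TNFRSF12A moved the same way in both lines. Their difference did not pass with the deposited FPKM, which does not show that they moved equally, and of these 5 only that of NR4A1 passed after the adjustment. Of the 143 genes, 32 were below 1 FPKM in both MDA-MB-468 treatments.

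**Figure D5:**
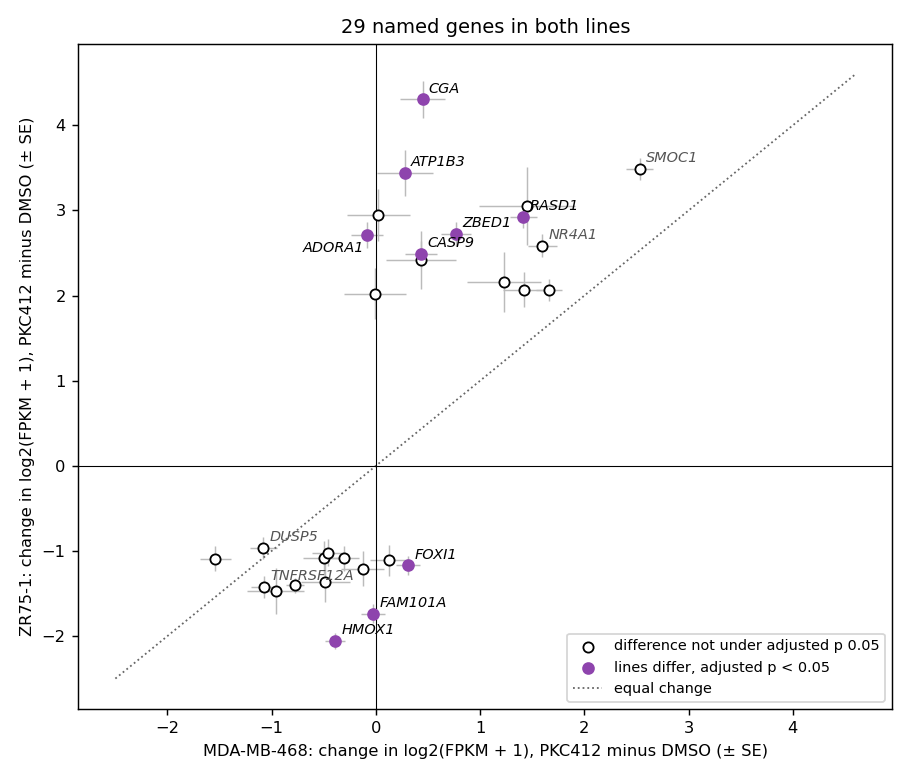
Change in log2(FPKM + 1), PKC412 minus DMSO, with its standard error, in MDA-MB-468 (horizontal axis) and in ZR75-1 (vertical axis) for 29 of the 30 genes that rose or fell most in ZR75-1. Filled points are genes whose difference between the lines passed a limma adjusted p of 0.05, and the dotted line marks equal change. CGA, at 4.30 against 0.45, and ADORA1, at 2.71 against -0.09, lie far above that line.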

How the data were processed

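Samples of both lines were grouped by their GEO labels. The authors deposited FPKM values per gene symbol, made with an in-house pipeline from TruSeq libraries sequenced on an Illumina HiSeq. The submitters' processing notes name CASAVA 1.82, TopHat2 and hg19, and the annotation and strand are not given in the sources used here. Triplicates are described, and 2 DMSO samples per line were analysed here. The dose is that of the labels and methods, while some legends give another. Values down to 2.19e-318 showed no steps of single reads, so depth is unknown and precision comes from the replicate spread alone.

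log2(FPKM + 1) was fitted with limma 3.58.1 in R 4.3.3 (1 mean for each of 4 groups, eBayes with trend, Benjamini-Hochberg adjustment at 0.05). Changes on this scale understate those of low genes. The adjustment divided out a per-sample fit of degree 3 on GC content and on log2 length, with GENCODE 29 values for 91.5% of the tested genes and medians for the rest. Gene positions are GENCODE 29's on GRCh38, and promoter windows RefSeq's on GRCh38.p14. Python 3.11.15 (numpy 2.4.6, pandas 2.3.3, matplotlib 3.10.9) was used otherwise. The fits were tested on simulated data.

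Named genes were the 15 largest rises and 15 largest falls among called genes without overlap, leaving out miRNA and snoRNA symbols, plus members of 48 gene lists, called members first. Some of these genes are not reported here. The genes and lists were chosen with earlier results of these data known. Other pseudocounts, filters and scalings, a replicate block and left-out samples were the alternatives.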

Additional observations from a re-analysis of the deposited data

Results flagged for a closer look

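Groups here hold 2 or 3 samples, too few for a test of single outlying samples. What drew attention was a response that differed between the lines, in limma's test of the log2 change in ZR75-1 minus that in MDA-MB-468, and 17 called genes passed it at an adjusted p under 0.05. The rise on the log2(FPKM + 1) scale was larger in ZR75-1 by 3.86 for CGA, 3.17 for ATP1B3 and 2.80 for ADORA1. It was larger by 2.06 for CASP9, 1.96 for ZBED1 and 1.51 for RASD1. RASD1 was low in MDA-MB-468, with means of 0.102 FPKM in DMSO and 1.94 in PKC412, against 0.533 and 10.7 in ZR75-1. Changes of so low a gene are understated on this scale, so its difference does not show a larger ratio in ZR75-1. HMOX1 fell further in ZR75-1 (difference -1.67), as did FAM101A (-1.71), which was near 0 in MDA-MB-468. FOXI1 differed by -1.48.

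The other 8 genes were singled out by this test after their values were seen. DSCAM-AS1, a long noncoding RNA of luminal breast tumours, differed by 1.79 and was at or near 0 in MDA-MB-468. MGAT5B (1.51) and ECEL1 (1.22) were under 1 FPKM there in both treatments. TM4SF1, a tetraspanin-like surface protein, differed by 1.95, with a mean of 178 FPKM in DMSO in MDA-MB-468. ARTN, a ligand of the GDNF family, differed by 1.63, TCF7L1 by 1.47 and HS6ST1 by 1.51, and the mean of each was lower in PKC412 than in DMSO in MDA-MB-468. BAG1, a co-chaperone of HSP70, differed by 1.24. After the GC and length adjustment the differences of BAG1 (limma adjusted p = 0.287) and DSCAM-AS1 (0.182) no longer passed.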

How the results depend on the processing

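The adjustments for GC content alone gave 195 rises and 103 falls, and those for GC content and length 256 and 181, with 11 and 13 rises in the cAMP and CREB list and 58 and 107 genes differing between the lines. ZR75-1 samples alone gave 9 rises, 3 falls and 2 list members with the deposited FPKM, and 23 rises and 4 falls after the adjustment for GC content and length. Without a filter on low FPKM, 57 genes differed between the lines, and 43 did with a limit of 0.1. Leaving out 1 sample gave between 34 and 144 rises, 10 and 28 falls, 5 and 8 list members and 17 and 41 genes differing between the lines.

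With the replicate number as a block, 2 genes rose, 0 fell, 0 list members rose and 0 differed between the lines (limma, with 2 residual degrees of freedom for 6 without the block). Of the 143 calls, 0 were called again in the same direction by this block fit. With the block after the GC and length adjustment the counts were 3, 0, 1 and 0, and 1 of the 143 was called again. Same-numbered samples of ZR75-1 had deviations that correlated at -0.02 and -0.39, and those of MDA-MB-468 at -0.26 and -0.14. These values come from the deposited FPKM, in which GC content separated the samples, and the deviations of 2 DMSO samples mirror each other. They cannot decide whether the numbers pair the samples. The main fit treated the samples as unpaired, and PKC412 replicate 3 has no partner under the block. At an unadjusted p under 0.05 the block fit had 394 genes, 114 of them lower in PKC412, and 201 that differed between the lines, and after the adjustment 1149, 568 and 488. Of 540 refits of the 30 named genes, 389 kept direction and call, 151 kept the direction alone and 0 reversed. These genes were chosen for lack of overlap between the treatments. That fixes the direction in refits that only drop samples or change the pseudocount, filter or trend, so the 0 is no measure of stability. The other alternatives (pseudocounts of 0.1 and 5, a limit on the mean of all samples, median-ratio rescaling, no trend) kept all counts within 1.5 times.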
